A study of Mus musculus with 26 samples.

Results

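The clustered protocadherins are 3 neighbouring gene groups, alpha, beta and gamma, on mouse chromosome 18. They were taken here as every row of the count tables whose symbol begins with Pcdha, or is Pcdhb or Pcdhga, Pcdhgb or Pcdhgc followed by a number. This gave 57 of 52535 genes, made up of 13 alpha, 22 beta and 22 gamma members. The same region was read in RNA polymerase II HiChIP, an assay that reads out which distant stretches of DNA touch at sites the polymerase occupies. All loops with an anchor in a window (mm10) that starts 30.3 kb before Pcdha1 and ends 58.1 kb after the last gamma exon were used, 403 of 489409 loops in the KO-labelled list and 172 of 143451 in the WT-labelled list.

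Clustered protocadherins are cell-surface adhesion proteins that bind their own kind between neighbouring cells. Each neuron uses its own combination of isoforms, which gives it a surface identity by which sister branches recognise and avoid each other. Every isoform has its own promoter and a large variable exon that encodes the extracellular cadherin repeats. In the alpha and gamma clusters the chosen variable exon is spliced to constant exons shared by the whole cluster, whereas beta genes consist of their own exon alone. Promoter choice is stochastic for most isoforms and depends on CTCF and cohesin, which bring a promoter to distal enhancers. An enhancer region used by the beta and gamma clusters lies beyond the gamma constant exons. In mice, DNA methylation by Dnmt3b and the protein Smchd1 keep promoters silent. The C-type isoforms, Pcdhac1, Pcdhac2, Pcdhgc3, Pcdhgc4 and Pcdhgc5, are closest to the constant exons and are used more uniformly among neurons.

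The samples were labelled as neural progenitor cells (NPC) that had gone through 12 days of neural induction. They derive from E14, a line of mouse embryonic stem cells (ESCs). One group carried the label Klf4-KO and the other WT, and each had 2 biological replicates per assay. The ESCs of both genotypes had been kept on gelatin in medium with serum, LIF, the MEK inhibitor PD0325901 and the GSK3 inhibitor CHIR99021. The number of knockout clones is not given in the sources used here, and ChIP-seq of undifferentiated cells was left aside. The KO-labelled libraries had 31909094 and 33347088 counts on genes, and the WT-labelled ones 37703866 and 29835774. Klf4, the targeted gene (chr4:55527137-55532475), had 2571 and 2538 counts in the libraries labelled KO, against 0 and 0 in those labelled WT. Against a floor of 3 counts for each library labelled WT this is a rise of at least 752-fold (edgeR quasi-likelihood test with Benjamini-Hochberg correction, adjusted p = 1.25e-23), and it goes against the labels. Groups are therefore called KO-labelled and WT-labelled, and every fold change is KO-labelled over WT-labelled.

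Reads of the alpha and beta clusters came mostly from the KO-labelled libraries, while the gamma cluster was read at a similar level in both groups. Counts over the 13 alpha members summed to 55 and 29 in the KO-labelled libraries, against 7 and 2 in the WT-labelled ones. Beta members summed to 80 and 81 counts in the KO-labelled libraries, against 16 and 3 in the WT-labelled ones. Gamma members summed to 968 and 1116 counts in the KO-labelled libraries, against 960 and 711 in the WT-labelled ones. In all 3 clusters, every KO-labelled sum lay above every WT-labelled one, in gamma narrowly (968 against 960). Over all genes tested, 44.2% had both KO-labelled libraries above both WT-labelled ones. All alpha and beta values are low, since a count of 3 corresponded to between 0.0837 and 0.108 CPM, the count scaled to the library size after TMM adjustment.

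In CPM, the alpha sum was 1.21 ± 0.563 in KO-labelled and 0.136 ± 0.0900 in WT-labelled libraries (SD, n = 2 each), a ratio of 8.88. The ratio of the counts was 8.35, and its 95% counting interval ran between 4.20 and 18.9. The beta sum was 2.30 ± 0.0527 CPM in KO-labelled and 0.282 ± 0.246 CPM in WT-labelled libraries, a ratio of 8.14, with a count ratio of 7.58 (interval 4.70 to 12.9). The gamma sum was 29.7 ± 2.04 CPM in KO-labelled and 26.5 ± 1.18 CPM in WT-labelled libraries, a ratio of 1.12. The log2 ratios were 3.15 for alpha, 3.02 for beta and 0.16 for gamma. They are given as descriptions with no test, and the intervals cover counting error only. Leaving out WT replicate 1 raised the log2 ratio to 4.06 for alpha and 4.40 for beta, because that library held most of the few WT-labelled counts, and leaving out WT replicate 2 gave 2.58 and 2.32. In bulk RNA, more cells using a gene and more RNA per cell cannot be told apart.

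**Figure D1:**
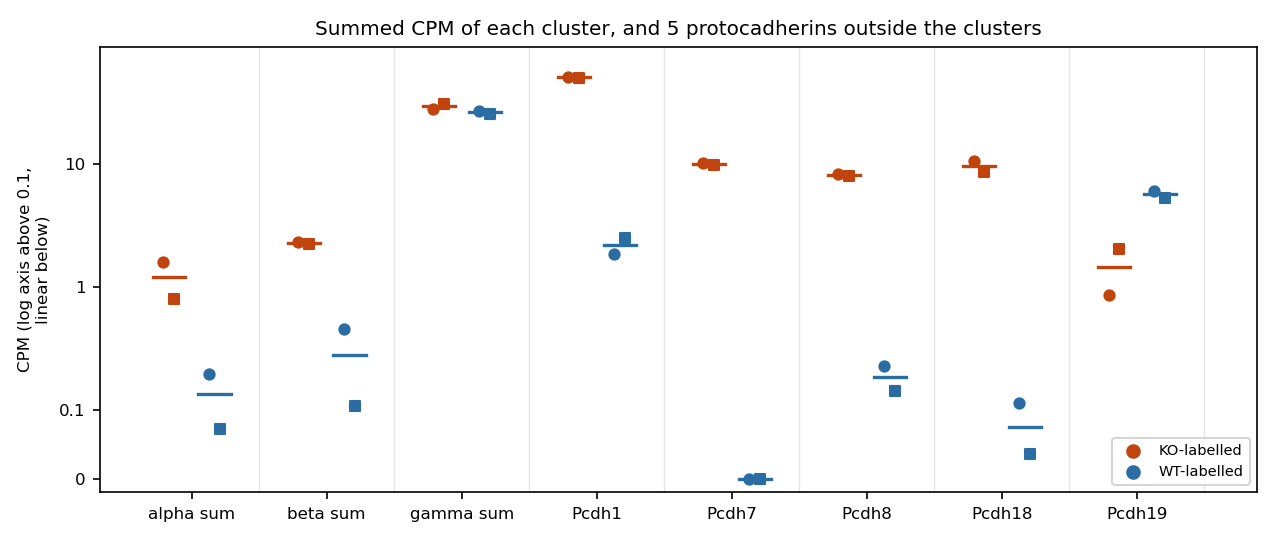
Summed CPM of the alpha, beta and gamma clusters and CPM of 5 protocadherins outside the clusters, in each library (log axis above 0.1, linear below; points are libraries, lines are group means; KO-labelled left, WT-labelled right). The alpha and beta sums of the KO-labelled libraries lie above those of the WT-labelled ones by a wide gap. The gamma sums of the KO-labelled libraries also lie above, by a narrow gap, and all 4 are between 25.7 and 31.1. Pcdh7 is at 0 in the WT-labelled libraries.

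The number of isoforms detected followed the same pattern. Of the 57 members, 41 and 44 had at least 1 count in the KO-labelled libraries, against 27 and 25 in the WT-labelled ones. Thinned to the depth of the smallest library, 40.7 and 43 members would be expected in the KO-labelled libraries and 26.4 and 25 in the WT-labelled ones. The gap lay in the alpha and beta clusters. Alpha members with a count numbered 9 and 11 in KO-labelled libraries against 1 and 2 in WT-labelled ones, and beta members numbered 11 and 12 against 5 and 2. In the gamma cluster, the same number, 21 of 22, had a count in every library, and only Pcdhga10 had none. Over all 4 libraries, 49 members had at least 1 count, 12 alpha, 16 beta and 21 gamma.

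Only 22 members passed the filter on low counts and entered the test, 1 alpha, 1 beta and 20 gamma. Of these, 5 were higher in the KO-labelled libraries, 1 was lower and 16 were not called (edgeR quasi-likelihood test, Benjamini-Hochberg adjusted over 17273 genes). Of all genes tested, 73.1% were called, 37.2% higher and 35.8% lower. With library size alone as the scaling, 62.0% of the genes called were higher rather than 50.9%, and the median log2 fold change of all genes was 0.24 rather than 0.026. Of the 22 members, 5 entered through the KO-labelled libraries alone, where both KO-labelled and neither WT-labelled library was above the minimum. These were Pcdhac2, Pcdhb22, Pcdhgb6, Pcdhga9 and Pcdhga8, so 4 of the 5 members called higher are among them and Pcdhgc5 is not. Entry by this route favours members with higher KO-labelled counts, although Pcdhga8, with 10 and 12 counts against 8 and 7, was not called. The number called higher is therefore no support for a change of the clusters. The members had few reads for such a test. The median gamma member tested had a mean count of 33.2 and a standard error of 0.50 on the log2 scale, whereas the median gene had a mean count of 477 and a standard error of 0.12. Among the members tested, 10 had both KO-labelled libraries above both WT-labelled ones and 3 had both below. Over all genes tested these shares were 44.2% and 42.1%.

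**Figure D2:**
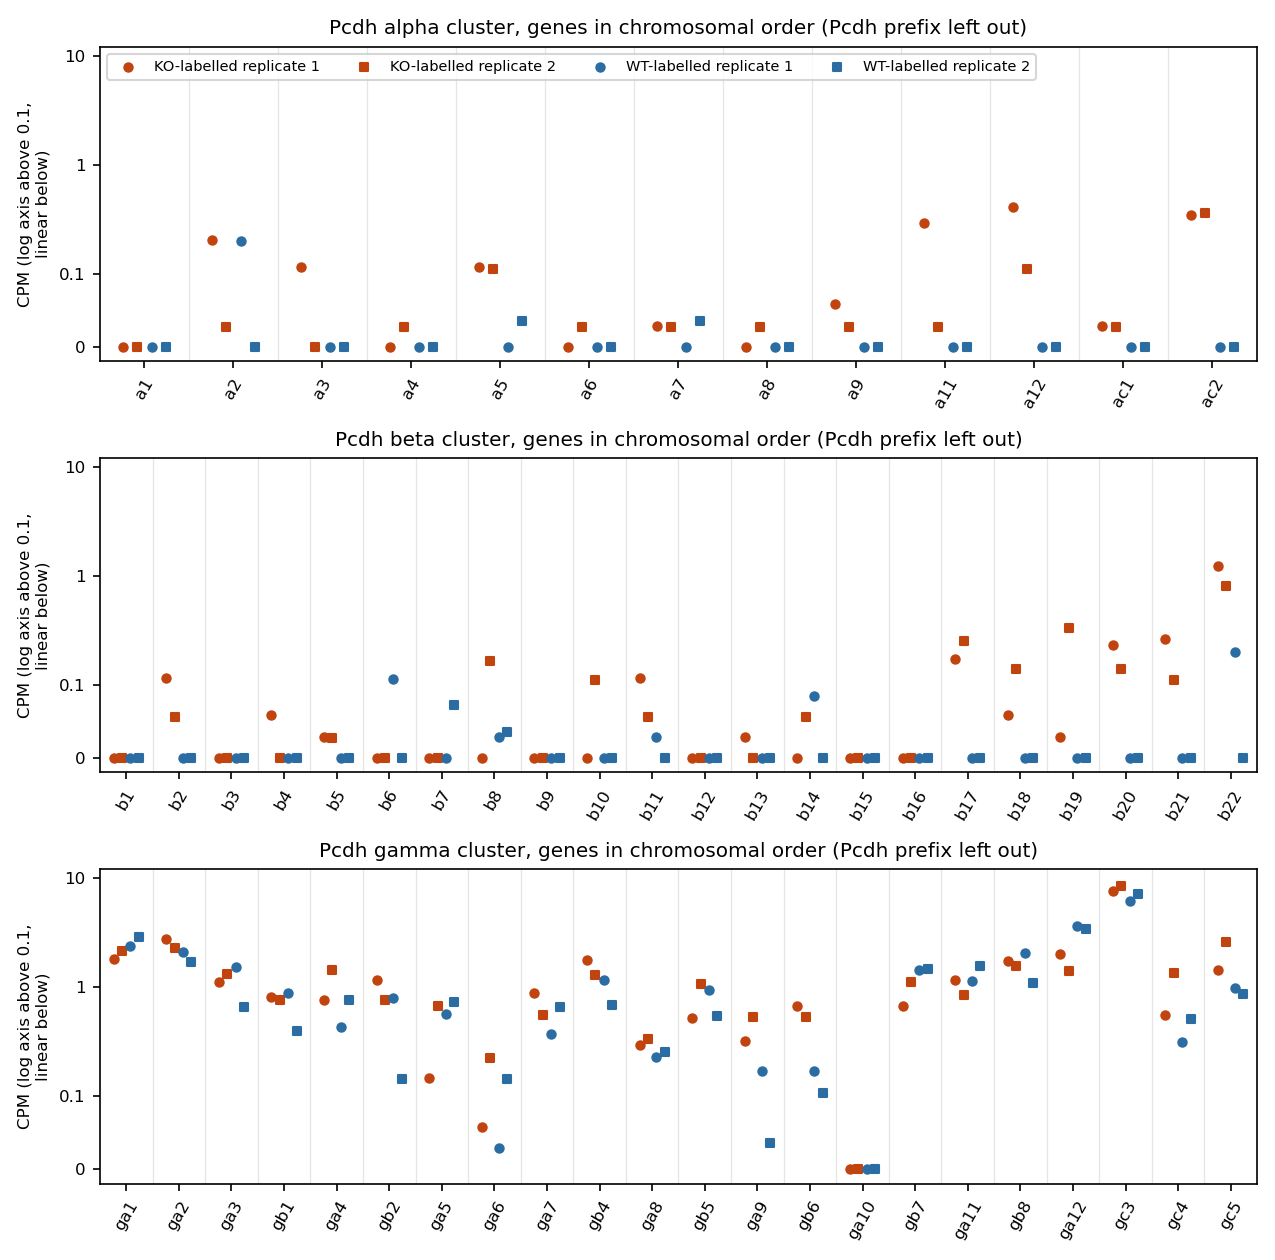
CPM of all 57 members in each library, in chromosomal order within the alpha, beta and gamma clusters (log axis above 0.1, linear below; orange circles and squares are KO-labelled replicates 1 and 2, blue ones WT-labelled). Alpha and beta members with signal lie mostly toward the end of their cluster and mostly in KO-labelled libraries, while gamma points of both groups mix.

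Pcdhac2, a C-type alpha isoform that serotonergic axons of mice need in order to tile their targets, was the only alpha member with enough counts to test. It had 12 and 13 counts in the KO-labelled libraries and 0 and 0 in the WT-labelled ones. Pcdhac2 (chr18:37143678-37187663) was thus at 0.356 ± 0.00886 CPM in KO-labelled libraries (SD, n = 2), at least 3.68-fold higher against a floor of 3 counts per library. It was called higher (edgeR quasi-likelihood test with Benjamini-Hochberg correction, adjusted p = 0.000838), and only its KO-labelled libraries were above the minimum of the filter on low counts. Without either KO-labelled library it no longer passed that filter and could not be tested.

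Of the other alpha members, Pcdha12 had the most counts, with 14 and 4 in KO-labelled libraries and 0 and 0 in WT-labelled ones. Pcdha11 had 10 and 1 counts in KO-labelled libraries and 0 and 0 in WT-labelled ones. Both are alternate isoforms, and their KO-labelled replicates differed widely. Against the floor, Pcdha12 was at least 2.68-fold and Pcdha11 at least 1.65-fold higher. Pcdha12 was not in the main test, and it was called when no filter was applied (adjusted p = 0.013).

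Pcdha5 had 4 and 4 counts in KO-labelled libraries against 0 and 1 in WT-labelled ones, a count ratio of 7.16 with an interval of 0.960 to 318, which includes 1. Pcdha2 did not follow the rest. It had 7 and 1 counts in KO-labelled libraries and 7 and 0 in WT-labelled ones, a ratio of 1.02 (interval 0.324 to 3.31). All 7 alpha counts of WT replicate 1 came from Pcdha2. Pcdhac1, the other C-type alpha isoform, had 1 and 1 counts in KO-labelled libraries and 0 in WT-labelled ones. Pcdha1 had no count, and the remaining alpha members had at most 4 counts in any library.

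Along the alpha cluster, the counts lay toward the constant exons in the KO-labelled libraries. The 7 members from Pcdha7 to Pcdhac2 had 40 and 22 counts in KO-labelled libraries, against 0 and 1 in WT-labelled ones. The 6 members from Pcdha1 to Pcdha6 had 15 and 7 counts in KO-labelled libraries, against 7 and 1 in WT-labelled ones. Pcdhac2 gave 12 of the 40 and 13 of the 22 counts. The division at Pcdha7 was made after the values were seen. A read in the shared constant exons belongs to every alpha isoform at once. How the authors' counting treated such reads is not given in the sources used here, so these counts may leave out much of the RNA of the cluster. The same limit holds for gamma.

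Beta genes have no shared exon, so each count belongs to its own gene unless a near-identical paralog took the read. Pcdhb22 (chr18:37518353-37521419), the beta gene nearest to the gamma cluster, had 42 and 29 counts in KO-labelled libraries, against 7 and 0 in WT-labelled ones. Both KO-labelled libraries lay above both WT-labelled ones. Pcdhb22 averaged 1.02 ± 0.294 CPM in KO-labelled and 0.0997 ± 0.141 CPM in WT-labelled libraries (SD, n = 2 each), and rose by 3.18 ± 0.79 on the log2 scale (SE, edgeR quasi-likelihood test with Benjamini-Hochberg correction, adjusted p = 0.000946). Its count ratio was 9.08 (interval 4.18 to 23.4). It was also called with the other scalings, without a filter, with DESeq2 and with the replicate block. Its log2 value was 2.32 without WT replicate 2 and 8.05 without WT replicate 1, where only a library with 0 counts remained. Only its KO-labelled libraries were above the minimum of the filter on low counts, and entry by this route favours higher KO-labelled counts. The alternatives reuse the same libraries, so they add no separate support.

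The 5 beta genes before it on the chromosome, Pcdhb17 to Pcdhb21, had counts in both KO-labelled libraries and none in either WT-labelled one. Pcdhb17 had 6 and 9 counts in the KO-labelled libraries. Pcdhb18 had 2 and 5, Pcdhb19 had 1 and 12, Pcdhb20 had 8 and 5, and Pcdhb21 had 9 and 4. Their lower bounds ran from 1.02-fold for Pcdhb18 to 2.2-fold for Pcdhb17. None passed the filter on low counts. Without a filter, Pcdhb17, Pcdhb19, Pcdhb20 and Pcdhb21 were called higher, with adjusted p-values of 0.0271, 0.0455, 0.0443 and 0.0441 (edgeR), and Pcdhb18 was not (0.176). In that fit, 6569 of all 28637 genes tested were called higher and 6329 lower.

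The 11 genes from Pcdhb12 to Pcdhb22 summed to 69 and 66 counts in KO-labelled libraries, against 10 and 0 in WT-labelled ones. The 11 genes from Pcdhb1 to Pcdhb11 had 11 and 15 counts in KO-labelled libraries, against 6 and 3 in WT-labelled ones. This division was made after the values were seen. No library had a count for Pcdhb1, Pcdhb3, Pcdhb9, Pcdhb12, Pcdhb15 or Pcdhb16. Pcdhb6 and Pcdhb7 had counts in WT-labelled libraries alone, 4 in WT replicate 1 for Pcdhb6 and 2 in WT replicate 2 for Pcdhb7.

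Since beta genes share no exon, levels can be set side by side per annotated length. Pcdhb22 stood at 0.400 and 0.264 CPM per kb in the KO-labelled libraries. Pcdhb21 followed with 0.0968 and 0.0411 CPM per kb, Pcdhb17 with 0.0535 and 0.0768, and Pcdhb20 with 0.0687 and 0.0411. The lower Pcdhb22 level was thus above every other beta level in the KO-labelled libraries, and the other 3 genes overlapped each other.

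The gamma cluster was the most abundantly counted and the most mixed. Of 20 members tested, 3 were higher in KO-labelled libraries (Pcdhgb6, Pcdhga9 and Pcdhgc5), 1 was lower (Pcdhga12) and 16 were not called. The median log2 fold change of the 20 was 0.33, with 15 positive and 5 negative values, against 0.026 over all genes tested. By type, 10 gamma A members had a median of 0.26 with 1 higher and 1 lower, 7 gamma B members had a median of 0.27 with 1 higher, and 3 C-type members had a median of 1.13 with 1 higher. Fold change showed little relation to place in the cluster (Pearson r = 0.15 and Spearman rho = 0.066 with the start position over 20 members, which share the same 4 libraries).

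Pcdhga12 (chr18:37765580-37841873), the last of the gamma A isoforms, was the only member called lower, among 5 gamma members with a negative log2 fold change. It had 69 and 50 counts in KO-labelled libraries, against 127 and 94 in WT-labelled ones. Its level was 1.70 ± 0.437 CPM in KO-labelled and 3.51 ± 0.158 CPM in WT-labelled libraries (SD, n = 2 each), with both KO-labelled libraries below both WT-labelled ones. It fell by 1.04 ± 0.30 on the log2 scale (SE, edgeR quasi-likelihood test with Benjamini-Hochberg correction, adjusted p = 0.00289). It stayed called under all 10 alternatives tried, with adjusted p between 0.00136 and 0.0434. As a share of gamma counts, Pcdhga12 took 7.13% and 4.48% in KO-labelled libraries, against 13.2% and 13.2% in WT-labelled ones. The exact 95% intervals were 5.59% to 8.93% and 3.34% to 5.86% in KO-labelled libraries, and 11.1% to 15.5% and 10.8% to 15.9% in WT-labelled ones.

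Pcdhgc5, a C-type isoform used by postnatal neurons, had 49 and 93 counts in KO-labelled libraries, against 34 and 24 in WT-labelled ones. It averaged 2.01 ± 0.824 CPM in KO-labelled and 0.918 ± 0.0720 CPM in WT-labelled libraries (SD, n = 2 each). Both KO-labelled libraries were above both WT-labelled ones, and KO replicate 2 was the higher of them. Pcdhgc5 rose by 1.13 ± 0.41 on the log2 scale (SE, edgeR, adjusted p = 0.016). Without KO replicate 2 the value was 0.63 and was not called (adjusted p = 0.351).

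Pcdhgc4, the isoform on which survival of mouse interneurons and spinal neurons depends, had 19 and 48 counts in KO-labelled libraries, against 11 and 14 in WT-labelled ones. The groups did not overlap, and the log2 fold change of 1.22 ± 0.61 was not called (edgeR, adjusted p = 0.0755). Pcdhgc3, which binds Axin1 and promotes dendrite branching, held the most counts of any member. It had 261 and 304 counts in KO-labelled libraries, against 214 and 198 in WT-labelled ones. Its level was 8.05 ± 0.612 CPM in KO-labelled and 6.63 ± 0.746 CPM in WT-labelled libraries, a log2 fold change of 0.28 ± 0.17 that was not called (edgeR, adjusted p = 0.127). With library size alone as the scaling, Pcdhgc3 and Pcdhgc4 were also called higher (adjusted p = 0.0101 and 0.0386). Pcdhgc4 was also called without KO replicate 1, at 1.72 (adjusted p = 0.0351).

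The C-type isoforms together took 34.0% and 39.9% of gamma counts in KO-labelled libraries, against 27% and 33.2% in WT-labelled ones. Both groups were spread, and the lower KO-labelled share was within 1 percentage point of the higher WT-labelled one. Gamma A isoforms took 40.1% and 37.5% in KO-labelled libraries, against 45.8% and 49.6% in WT-labelled ones, without overlap. These include Pcdhga12, which alone took 7.13% and 4.48% in KO-labelled libraries, against 13.2% and 13.2% in WT-labelled ones. The gap is therefore not read as a shift of the gamma A type. Gamma B isoforms took 25.9% and 22.7% in KO-labelled libraries, against 27.2% and 17.2% in WT-labelled ones, and overlapped. Pcdhgc3 took 27% and 27.2% in KO-labelled libraries, against 22.3% and 27.8% in WT-labelled ones. Shares are of counts not corrected for length, so they compare libraries and not isoforms.

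Of the alternate gamma isoforms, Pcdhgb6 and Pcdhga9, which lie next to each other, had the largest rises on low counts. Pcdhgb6 had 23 and 19 counts in KO-labelled libraries, against 6 and 3 in WT-labelled ones, and rose by 2.05 ± 0.74 (log2, SE, edgeR, adjusted p = 0.0162). Pcdhga9 had 11 and 19 counts in KO-labelled libraries, against 6 and 1 in WT-labelled ones, and rose by 1.93 ± 0.85 (adjusted p = 0.0444). In both, the groups did not overlap. Neither call held when any library was left out, with adjusted p between 0.0657 and 0.178 for Pcdhgb6 and between 0.0608 and 0.373 for Pcdhga9. Without WT replicate 1 the Pcdhga9 value was 3.42, and without WT replicate 2 it was 1.29.

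None of the other gamma members with most counts was called. Pcdhga1, the first gamma gene, had 62 and 76 counts in KO-labelled libraries against 83 and 80 in WT-labelled ones, a log2 fold change of -0.41 ± 0.31 (edgeR, adjusted p = 0.227). Pcdhga2 had 95 and 81 counts in KO-labelled libraries against 74 and 47 in WT-labelled ones, with 0.39 ± 0.31 (adjusted p = 0.258). Pcdhgb8, annotated as a transcribed pseudogene, had 59 and 56 counts in KO-labelled libraries against 72 and 30 in WT-labelled ones, with 0.05 ± 0.38 (adjusted p = 0.913). The WT-labelled replicates were further apart than the group means in Pcdhgb8. Pcdhgb2 had 40 and 27 counts in KO-labelled libraries against 28 and 4 in WT-labelled ones, with 0.97 ± 0.63 (adjusted p = 0.171), and without WT replicate 1 it was called at 2.69. Pcdhga6, with 2 and 8 counts in KO-labelled and 1 and 4 in WT-labelled libraries, did not pass the filter, and the other gamma members with no value given above had adjusted p-values of at least 0.146.

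**Figure D3:**
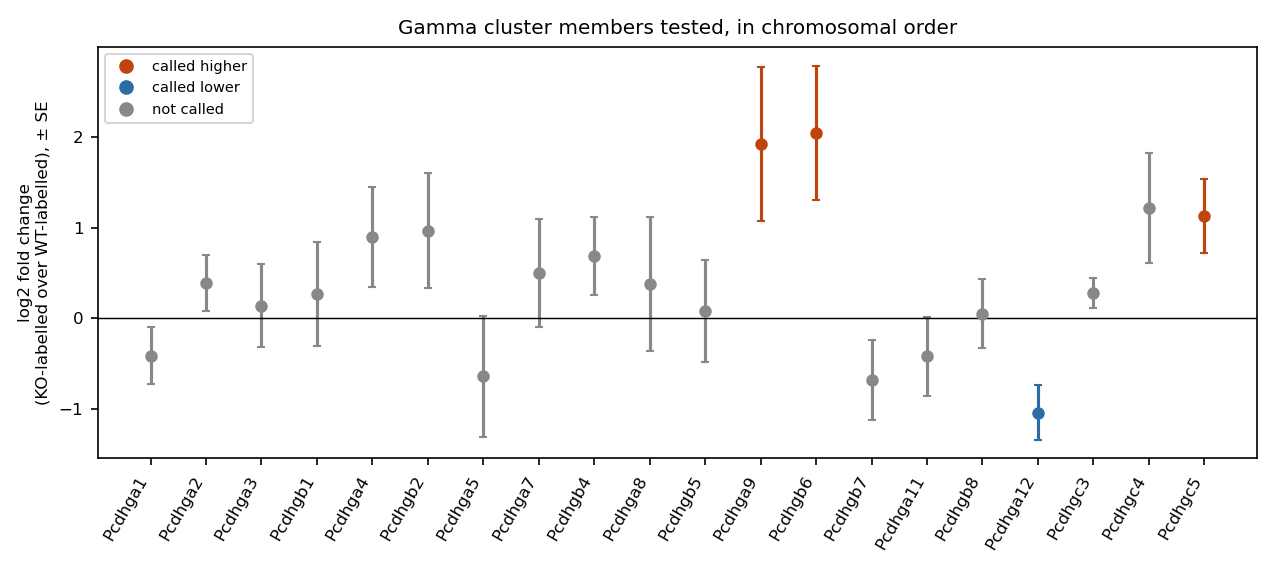
Log2 fold change, KO-labelled over WT-labelled, with its standard error for the 20 gamma members tested, in chromosomal order (orange, called higher; blue, called lower; grey, not called). Pcdhga9, Pcdhgb6 and Pcdhgc5 were called higher and Pcdhga12 lower, at -1.04, and most other error bars reach or approach 0.

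Markers of several cell types also differed between the groups, beside 73.1% of all genes tested that were called, 37.2% higher and 35.8% lower. These shares over all genes stand beside every list below. Of 11 neural progenitor markers tested, 9 were higher in KO-labelled libraries, and the list of 12 summed to 792 and 834 CPM in KO-labelled and 672 and 656 CPM in WT-labelled libraries. The other 2 were lower, Sox2 (456 CPM in KO-labelled, 536 in WT-labelled libraries) and Ncam1 (12.2 and 24.7 CPM). Zic1 had 111 and 145 counts in KO-labelled libraries against 6 and 0 in WT-labelled ones, and Fabp7 had 28 and 25 against 0 and 0. Hes5 had 7 and 4 counts in KO-labelled libraries and none in WT-labelled ones, at least 1.63-fold higher against the floor, and it was not tested. The neural progenitor markers Sox2 and Nes (96.6 CPM in KO-labelled, 73.3 in WT-labelled libraries) were well above 0 in both groups. Of 11 neuronal markers tested, 8 were higher, led by Syt1 (74 and 146 counts in KO-labelled, 3 and 0 in WT-labelled libraries) and Snap25 (94 and 82 against 0 and 5). The 2 lower were Tubb3 (21.3 CPM in KO-labelled, 141 in WT-labelled libraries) and Stmn2 (165 and 356 CPM). The 12 neuronal markers summed to 255 and 250 CPM in KO-labelled and 538 and 518 CPM in WT-labelled libraries, and Dcx was at 0 in both WT-labelled ones.

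All 8 mesoderm and fibroblast markers were higher in KO-labelled libraries, with sums of 446 and 434 CPM in KO-labelled and 8.29 and 6.58 CPM in WT-labelled ones, where Mesp1 was at 0. Acta2 had 5226 and 5289 counts in KO-labelled libraries against 1 and 0 in WT-labelled ones, and Col1a2 had 5110 and 5152 against 1 and 1. All 5 endoderm markers tested were higher too, with sums of 43.9 and 43.7 CPM against 2.11 and 2.06 CPM, led by Sox17 (11.4 CPM in KO-labelled, 0.146 in WT-labelled libraries) and Foxa2 (9.43 and 0.225 CPM). The 12 pluripotency markers, of which 3 were higher and 9 lower, summed to 4700 and 4760 CPM in KO-labelled and 8590 and 8610 CPM in WT-labelled libraries. Tbx3 (27.3 CPM in KO-labelled, 288 in WT-labelled libraries) and Tfcp2l1 (135 and 1020 CPM) fell most, and Utf1 (362 and 158 CPM) and Dppa4 (145 and 72.9 CPM) rose most. Of 4 glial markers tested, 3 were higher, led by Slc1a3 (55.0 CPM in KO-labelled, 16.6 in WT-labelled libraries) and Cspg4 (1.51 and 0.499 CPM), with sums of 73.1 and 78.7 CPM against 27 and 21.6 CPM, and Aqp4, Olig2 and S100b were at 0 in WT-labelled libraries. The part of these cell types in the protocadherin counts was not tested.

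The factors that shape the promoters of the clusters were present in all libraries. Ctcf, which binds the promoters and enhancers of the clusters, was at 196 ± 6.11 CPM in KO-labelled and 185 ± 1.64 CPM in WT-labelled libraries, a log2 fold change of 0.082 ± 0.035 (edgeR, adjusted p = 0.0393). Rad21, the cohesin subunit that closes the ring, was at 342 ± 3.73 CPM in KO-labelled and 358 ± 6.37 CPM in WT-labelled libraries (-0.067 ± 0.029, adjusted p = 0.0411). The sign of the Rad21 value depended on the scaling. It was -0.062 and not called with DESeq2-type size factors (adjusted p = 0.0625), 0.019 and not called with upper-quartile scaling (adjusted p = 0.578), and called higher at 0.14 with library size alone (adjusted p = 8.79e-05). Of 12 genes of CTCF and cohesin, 4 were higher and 5 lower, with a median of 0.013 against 0.026 over all genes, and with library size alone 8 were higher and 3 lower. Mau2, of the cohesin loader, rose by 0.91 ± 0.044, and Stag2, a cohesin subunit, rose by 0.71 ± 0.040. Ctcfl, the germline paralog of Ctcf, fell by 1.41 ± 0.49, and Wapl, which releases cohesin, fell by 0.33 ± 0.032.

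Among 20 genes of promoter silencing, 8 were higher and 11 lower, with a median of -0.31. Dnmt3b, the methyltransferase of these promoters, was at 311 ± 6.26 CPM in KO-labelled and 191 ± 2.86 CPM in WT-labelled libraries, and rose by 0.70 ± 0.032 (edgeR, adjusted p = 4.32e-16). Smchd1 was at 168 ± 0.658 CPM in KO-labelled and 91.4 ± 2.68 CPM in WT-labelled libraries, and rose by 0.88 ± 0.041 (adjusted p = 6.5e-16). Whether the genes of this list bear on the alpha and beta counts was not tested. Tet3, a methylcytosine dioxygenase, rose by 1.22 ± 0.15, while Tet2 fell by 2.17 ± 0.051 and Uhrf1, which guides maintenance methylation, fell by 1.49 ± 0.026. Dnmt3b and Smchd1 were called higher under every scaling tried.

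Of 16 partners and signalling genes, 9 were higher and 4 lower, with a median of 0.34, and with library size alone 12 were higher and 2 lower. Ret, a receptor kinase that binds protocadherins, had 35 and 51 counts in KO-labelled libraries against 12 and 4 in WT-labelled ones and rose by 2.27 ± 0.61. Ptk2b, the kinase Pyk2 that alpha and gamma protocadherins inhibit, was at 30.7 ± 2.16 CPM in KO-labelled and 6.82 ± 0.145 CPM in WT-labelled libraries and rose by 2.17 ± 0.11 (edgeR, adjusted p = 6.27e-15). Brk1, a WAVE complex subunit, fell by 0.51 ± 0.053, and Adam10, which sheds protocadherins, fell by 0.44 ± 0.074.

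Protocadherins outside the clusters, each a gene with its own promoter and no shared exons, were read for comparison. Of 12 listed, 5 were tested, of which 4 were higher and 1 lower, with a median of 5.40. Pcdh7 had 351 and 357 counts in KO-labelled libraries and 0 and 0 in WT-labelled ones, at least 104-fold higher. Pcdh18 had 368 and 309 counts in KO-labelled libraries against 4 and 1 in WT-labelled ones and rose by 6.86 ± 0.37. Pcdh19, which works with N-cadherin, had 30 and 73 counts in KO-labelled libraries against 212 and 149 in WT-labelled ones and fell by 1.97 ± 0.30 (edgeR, adjusted p = 4.67e-06). Of 7 cadherins tested, 6 were higher and 1 lower, led by Cdh11 (6.42 ± 0.42) and Cdh6 (4.72 ± 0.38), with Cdh4 the one that fell, by 1.47 ± 0.19.

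Genes that flank or interrupt the clusters did not all follow them. In the window and 250 kb on each side, the members left out, 22 genes were tested, of which 7 were higher and 11 lower, with a median of -0.33, and with library size alone 8 were higher and 8 lower. Taf7, a TFIID subunit whose gene lies between the beta and gamma clusters, was at 104 ± 3.28 CPM in KO-labelled and 180 ± 1.24 CPM in WT-labelled libraries and fell by 0.79 ± 0.039 (edgeR, adjusted p = 2.74e-15). Slc25a2, also between them, had 10 and 3 counts in KO-labelled libraries against 23 and 16 in WT-labelled ones and fell by 1.71 ± 0.73 (adjusted p = 0.0388). Diaph1, a formin next to the gamma constant exons, was at 206 ± 3.11 CPM in KO-labelled and 111 ± 0.815 CPM in WT-labelled libraries and rose by 0.90 ± 0.037 (adjusted p = 5.66e-17). Hdac3, a histone deacetylase further on, was at 60.9 ± 0.671 CPM in KO-labelled and 83.8 ± 3.43 CPM in WT-labelled libraries and fell by 0.46 ± 0.053 (adjusted p = 2.88e-08). Arap3 rose by 4.13 ± 0.16 and E230025N22Rik by 2.67 ± 0.87, and Zmat2 fell by 0.94 ± 0.044.

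Polymerase II loops of the region were gathered at the gamma cluster in both lists. Each genotype had 1 deposited loop list that pools both replicates, so what follows describes the lists and no test is given. The KO-labelled list held 403 loops with 706 tags (paired reads that join the anchors) in the window, and the WT-labelled list held 172 loops with 342 tags. This was 0.0722% of all tags in the KO-labelled list (exact 95% interval 0.0670% to 0.0778%) and 0.0840% in the WT-labelled list (0.0753% to 0.0934%). Over all loops the KO-labelled list was also the larger, with 977208 tags against 407150. Anchors in the window numbered 23 and covered 81.5 kb in the KO-labelled list, against 17 covering 54.8 kb in the WT-labelled list.

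At a false discovery rate (FDR, the authors' value) of at most 0.01 and at least 2 tags, 50 window loops, 12.4%, passed in the KO-labelled list and 14, 8.14%, in the WT-labelled one. The exact 95% intervals were 9.35% to 16% for KO-labelled and 4.52% to 13.3% for WT-labelled loops. Across the whole lists, 11.7% of KO-labelled and 15.4% of WT-labelled loops passed. Among passing loops, the order of the window's tag shares turned round. At like range fewer tags could reach a given FDR in the KO-labelled list, so counts of passing loops are not on a common scale. The window held 205 of 285890 passing tags in the KO-labelled list, 0.0717% (exact 95% interval 0.0622% to 0.0822%), and 49 of 175142 in the WT-labelled list, 0.0280% (0.0207% to 0.037%). The 26 tags of 1 KO-labelled loop and the 20 of 1 WT-labelled loop are part of these sums. Most window loops rested on 1 tag, 72.0% in the KO-labelled and 65.7% in the WT-labelled list. Of the loops, 29 KO-labelled ones (7.20%) and 31 WT-labelled ones (18%) had a counterpart in the other list, where 7.49% of all KO-labelled and 24.5% of all WT-labelled loops did.

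Anchors in the alpha and beta clusters appeared in the KO-labelled list alone. That list was the larger in all, with 51088 anchors covering 173 Mb, against 24123 covering 92.5 Mb in the WT-labelled list. Alpha held 4 KO-labelled anchors with 30 loops and 36 tags, and beta held 1 with 13 loops and 14 tags, against 0 anchors in the WT-labelled list for either. These are small numbers, 5.10% and 1.98% of the window's KO-labelled tags, and only 1 of those loops passed. The gamma A and B region took 33.6% of the window's tags in the KO-labelled list and 42.7% in the WT-labelled one. The C-type and constant exons of gamma took 54.8% in the KO-labelled list and 44.7% in the WT-labelled one. The stretch around Taf7 and Slc25a2 took 11.3% and 18.7%, and Diaph1 took 24.1% and 36.3%, in the KO-labelled and WT-labelled list in that order. A loop between 2 regions counts in both, so shares add to more than the whole.

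**Figure D4:**
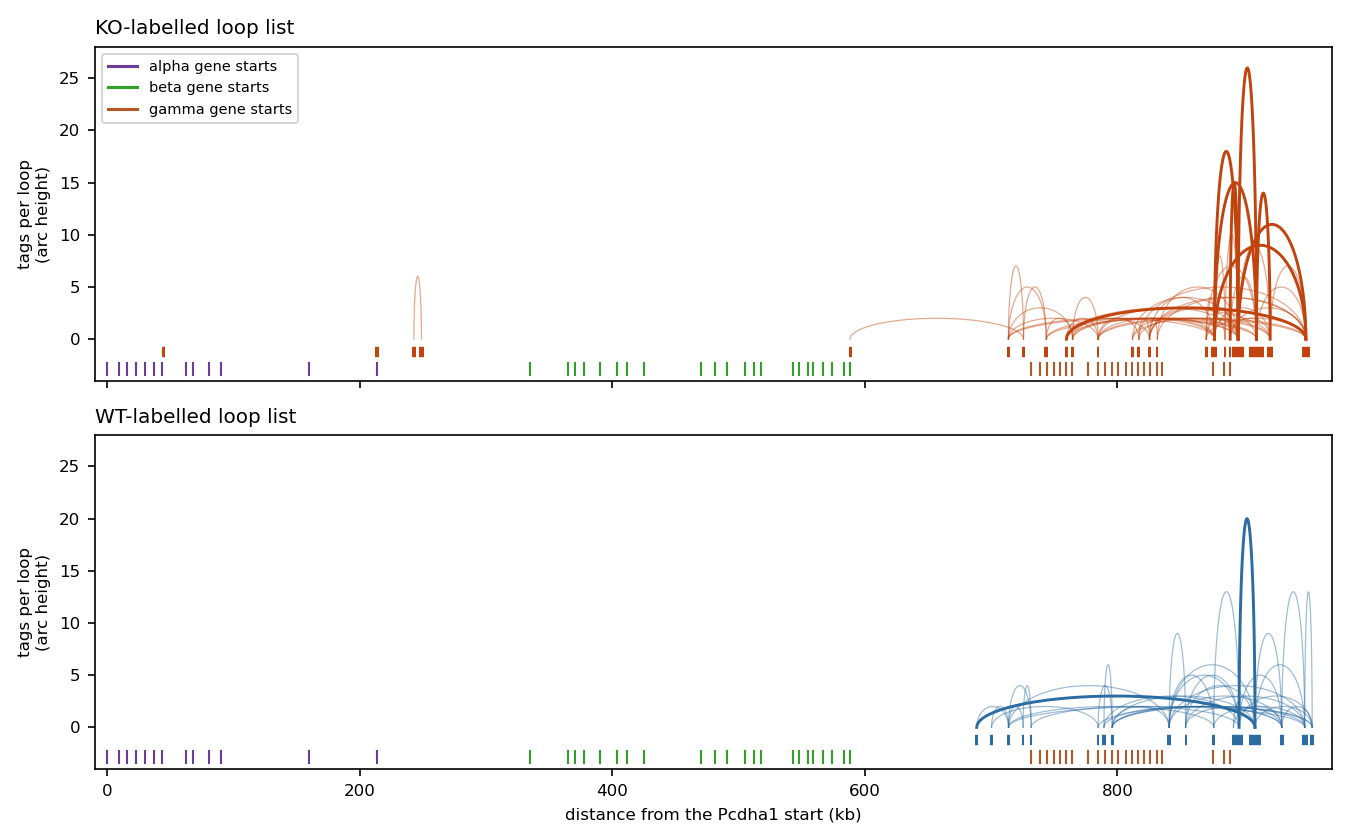
Loops of at least 2 tags with both anchors in the window, drawn as arcs whose height is the tag count, against distance from the Pcdha1 start in kb (KO-labelled list above, WT-labelled list below; thick arcs pass the FDR limit, blocks are anchors, ticks are alpha, beta and gamma gene starts). The tallest arcs of both lists, 26 and 20 tags, stand at the gamma constant exons, and anchors over alpha and beta starts occur in the KO-labelled list.

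The loop with most tags was the same in both lists. It joined the stretch after Pcdhgc5 to the constant exons at the end of the gamma cluster, where an annotated end of Diaph1 also lies. In the KO-labelled list it ran from chr18:37821112-37830754 to chr18:37834232-37846721 over 14.5 kb, with 26 tags and an FDR of 1.23e-13. In the WT-labelled list it ran from chr18:37823788-37829597 to chr18:37834232-37844313 over 12.6 kb, with 20 tags and an FDR of 0.00054. By comparison, another KO-labelled loop with 14 tags over 10.8 kb had an FDR of 0.000203. Fewer tags at like range thus had a lower FDR in the KO-labelled list.

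Pcdhgc3 was the isoform with the strongest loops. Its start lay in an anchor of both lists, with 40 loops and 108 tags in the KO-labelled list, against 10 loops and 28 tags in the WT-labelled one. From the Pcdhgc3 anchor to the stretch after Pcdhgc5 there were 18 tags in the KO-labelled list (FDR 1.22e-07), against 13 tags in the WT-labelled list (FDR 0.0335, not passing). Further KO-labelled loops joined it to the constant exons with 15 tags (FDR 2.76e-06) and to Diaph1 with 9 tags (FDR 0.00468). Both of these had a counterpart in the WT-labelled list. The start of Pcdhgc5 lay in a KO-labelled anchor alone, and it was joined to the stretch right after it by 15 tags (FDR 0.000165). The constant exons were joined to Diaph1 by 14 tags in the KO-labelled list (FDR 0.000203).

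In the WT-labelled list the other loops with most tags did not pass the FDR limit. Diaph1 anchors were joined to each other by 13 tags on 2 occasions (FDR 0.0233 and 0.0644), and 2 anchors between Pcdhga12 and Pcdhgc3 by 9 tags (FDR 0.359). Those anchors, chr18:37769513-37773093 and chr18:37783525-37785133, took 15.2% and 9.36% of the WT-labelled window tags and overlapped no KO-labelled anchor.

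Loops that joined an isoform's start to other sites and passed the FDR limit numbered 20 in the KO-labelled list and 0 in the WT-labelled one. At like range, fewer tags could reach a given FDR in the KO-labelled list, so these numbers are not on a common scale. In all, 223 KO-labelled and 58 WT-labelled loops had a member start in an anchor. Over the whole lists, 11.7% of KO-labelled and 15.4% of WT-labelled loops passed. Of the 20, 14 reached beyond both the window and Diaph1, 10 had no more than 2 tags and 4 had a counterpart in the WT-labelled list. Pcdhgb2 was joined to Diaph1 over 190 kb by 3 tags (FDR 0.00148) and to a further Diaph1 anchor over 244 kb by 3 tags (FDR 0.000181). Pcdhgb6 was joined by 3 tags to a site 273 kb away (FDR 8.68e-05), and Pcdhga11 by 3 tags to the Hdac3 and Rell2 anchor 200 kb away (FDR 0.000707). Pcdhgc3 was joined to Pcdh1, a protocadherin outside the clusters, over 381 kb by 3 tags (FDR 1.48e-05).

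Pcdhac2 was the only alpha isoform with a passing loop, to the Hdac3 and Rell2 anchor 812 kb away, with 2 tags (FDR 0.000285). The same Pcdhac2 anchor had 6 loops and 7 tags in all. The Pcdhb22 anchor had 13 loops and 14 tags, of which none passed. A value of 2 tags is near the least that the lists hold. At shorter range the FDR asked for more, since 9 tags over 25.4 kb had an FDR of 0.0144 in the KO-labelled list.

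Starts of 14 members lay in a KO-labelled anchor, 2 alpha, 1 beta and 11 gamma, and starts of 5 members, all gamma, lay in a WT-labelled one. Among 27025 genes of other chromosomes, 50.2% had a start in a KO-labelled anchor and 38.5% in a WT-labelled one. The alpha and beta members with an anchor were Pcdha7, Pcdhac2 and Pcdhb22. In gamma, Pcdhga7 and Pcdhgc3 had an anchor in both lists. Pcdhga3, Pcdhgb2, Pcdhga5, Pcdhgb6, Pcdhga10, Pcdhga11, Pcdhgb8, Pcdhgc4 and Pcdhgc5 had one in the KO-labelled list alone, and Pcdhga1, Pcdhgb4 and Pcdhga8 in the WT-labelled list alone.

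Set beside the RNA, 4 of the 5 members called higher, Pcdhac2, Pcdhb22, Pcdhgb6 and Pcdhgc5, had an anchor at the start in the KO-labelled list alone, as did 6 of the 17 members tested and not called higher. Among the genes of other chromosomes, 14.8% had a start in a KO-labelled anchor alone, and among all gamma members 9 of 22 did. The first 3 of the 4 entered the test through the KO-labelled libraries alone, so nothing is read from this count. Pcdhga9 and Pcdhga12 had an anchor at the start in neither list. Klf4 went against the labels in RNA, and whether the labels of the loop lists are affected was not tested. Counts of gamma members with and without an anchor are given as a description. They are not corrected for length and so do not compare isoforms, and no relation is read from them. The 11 gamma members with a KO-labelled anchor had a median of 67 summed KO-labelled counts (range 0 to 565), and the 11 without one had 63 (range 10 to 176). The range begins at 0 because Pcdhga10 had an anchor with 19 loops and 27 tags but no count in any library. In the WT-labelled list, the 5 gamma members with an anchor had a median of 60 summed WT-labelled counts (range 15 to 412), and the 17 without one had 42 (range 0 to 221).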

How the data were processed

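Used here were the RNA-seq counts and the HiChIP loops (RNA polymerase II) of the E14-derived NPC, grouped by the sample titles. The RNA files hold raw counts per gene deposited by the authors, 1 file per library and not normalized. The loop lists were deposited by the authors, 1 per genotype with 2 replicates pooled, and each row gives 2 anchors, a tag count and a false discovery rate (q-value). Per the submitters' processing notes, the build was mm10 and the tools included MACS2 2.2.7.1, HiC-Pro 2.11.1, Bowtie2 2.4.4, DESeq2 1.18.1, featureCounts 2.0.3 and HISAT2 2.1.0. The count files end in rows of the form that htseq-count writes. Annotation, strand setting and loop caller were not given in the sources used here, so reads of genes on opposite strands cannot be told apart.

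Library sizes leave out 5 closing rows without a gene. Reads that fell on no feature were 8.07% and 8.00% of KO-labelled and 6.16% and 6.05% of WT-labelled totals. Ambiguous reads, where reads of shared exons may fall, made up 4.19% to 4.41%, and reads without a unique alignment, where near-identical paralogs lose reads, 7.06% to 7.69%. Genes were filtered with filterByExpr (minimum count 10), scaled with TMM (factors 1.08 and 1.08 for KO-labelled, 0.931 and 0.928 for WT-labelled libraries) and tested two-sided by robust quasi-likelihood (glmQLFit, glmQLFTest; edgeR 4.0.16, R 4.3.3), adjusted by Benjamini-Hochberg over 17273 genes at a threshold of 0.05. CPM use TMM-scaled library sizes. The test was checked on simulated data. Replicates differed beyond sampling noise, with a chi-square per degree of freedom of 4.19 for KO-labelled and 3.48 for WT-labelled pairs, and were counted separately. The series design states biological replicates, and p-values measure the spread between them. Where a group had 0 counts, a lower bound used 3 counts per library, averaged over the group in CPM. Where it had few, a count ratio with an exact binomial interval was given. Shares carry Clopper-Pearson 95% intervals. Counting error is all that these intervals and floors cover.

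Loops of the lists were taken as shared if each anchor overlapped its counterpart by at least 1 base. Each list has its own anchors, so tag sums move with the length covered. Gene positions were read from RefSeq (GRCm38.p6), and an anchor held a start where they overlapped. The regions within the window were drawn after the values were seen. Genes were named by this rule: C-type isoforms, the 5 members with most counts and the 3 largest called rises and falls per cluster; in other lists the 2 largest called rises and falls and Ctcf, Rad21, Dnmt3b, Smchd1, Taf7, Diaph1 and Hdac3; the 5 loops with most tags per list and the 10 strongest passing loops of the clusters. Others, such as Nes, Hes5 and Dcx, were named after their values were seen. The members and lists were chosen with earlier results of these data known.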

Additional observations from a re-analysis of the deposited data

How the results depend on the processing

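Alternatives were other scalings, no filter on low counts, DESeq2 1.42.0, the replicate number as a block, and leaving out each library, where the lone sample is assumed to vary like the other group. No member changed sign with a call. Pcdhb22 and Pcdhga12 were called with the other scalings, without a filter, with DESeq2 and with the block. These fits reuse the same libraries, and Pcdhb22 entered the main test through the KO-labelled libraries alone. The number of members higher was 9 without a filter and 1 to 4 with a library left out, against 5. For alpha it was 2 without a filter, 2 with DESeq2 and 0 to 2 with a library left out, against 1. For beta it was 5 without a filter and 2 with DESeq2, against 1. For gamma it was 5 with library size alone, 1 with DESeq2 and 0 to 2 with a library left out, against 3. Fewer or more genes passed the filter in some of these, and the cause was not tested further. Over all genes, 6569 of 28637 were higher and 6329 lower without a filter. With DESeq2, 6282 of 22270 were higher and 6089 lower. With library size alone, 7820 of 17273 were higher and 4787 lower.

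The log2 ratios of the sums ranged from 2.57 to 4.06 for alpha, 2.32 to 4.40 for beta and 0.086 to 0.23 for gamma with a library left out, and the gamma value was 0.25 with upper-quartile scaling and 0.37 with library size alone. With the replicate block 4 members were higher and 1 lower, and Pcdhga9 was lost (adjusted p = 0.0849). The numbers do not pair the samples, as deviations of same-numbered libraries correlated at 0.015. DESeq2 lost Pcdhga9 (adjusted p = 0.138) and Pcdhgb6 (0.0503).

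Window loops passing the FDR limit were 50 in the KO-labelled and 14 in the WT-labelled list. Of these, 17 KO-labelled and 4 WT-labelled ones had 3 tags or more, and 8 and 2 had both anchors inside. Without the limit there were 403 and 172. The KO-labelled tag share was 0.0717% among passing loops, 0.0366% with both anchors inside and 2.94% of chromosome 18. The WT-labelled share was 0.0280% among passing loops, 0.0570% with both anchors inside and 3.21% of chromosome 18. Allowing 5000 bases between anchors, 17.6% of KO-labelled and 30.2% of WT-labelled window loops were shared. Alpha and beta isoforms were at or near the floor of 3 counts in most libraries, so differences between single isoforms there were mostly not detectable at this depth.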

Other observations

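Pcdh1 (chr18:38185914-38212048), a protocadherin downstream of the clusters, was joined to the window by 18 loops with 29 tags in the KO-labelled list, of which 9 loops with 20 tags passed the FDR limit, and by 0 loops in the WT-labelled list, where it held 1 anchor. Pcdh1 had 1772 and 1816 counts in KO-labelled libraries, against 66 and 70 in WT-labelled ones, and rose by 4.55 ± 0.12 on the log2 scale (SE, edgeR quasi-likelihood test with Benjamini-Hochberg correction, adjusted p = 8.88e-21). Klf4 itself, on chromosome 4, had 23 loops with 33 of 977208 tags in the KO-labelled list, against 9 loops with 41 of 407150 tags in the WT-labelled list. Its share of tags was thus higher in the WT-labelled list, whereas its RNA counts were higher in the KO-labelled libraries. Whether the loop lists carry the same label conflict as the RNA was not tested. Gm37013, a gene model annotated across the clusters from the start of Pcdha4 to the gamma constant exons, had 0 counts in every library. Reads that overlap both this model and a member may have been set aside as ambiguous, so the value does not measure its RNA.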
